A study of Homo sapiens with 3 samples.

Results

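The ATF4 pathway switches on genes for amino acid supply when cells run short of amino acids or come under other stress. A list of 38 of its genes was followed on 3 arrays, and 37 of them were measured, of 19775 genes in all. A gene was measured where the platform annotation gave a probe set that gene's symbol alone, and the probe set with the highest mean log2 signal stood for the gene. The exception was MARS1, methionyl-tRNA synthetase, whose 3 probe sets also name another gene. The 37 genes were read by 69 probe sets, 16 genes by 1 and 21 by several.

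The cells were U2OS, a human osteosarcoma line, and every group had been transduced with a retrovirus and harvested 5 days later. The first group received a form of Set8b labelled Set8_deltaPIP2, which is made stable because it resists the CRL4-Cdt2 ubiquitin ligase. The second received wild-type Set8b (Wt-Set8b) and the third the empty vector (pMSCV-vector). Set8, encoded by KMT5A, is the enzyme that adds a single methyl group to lysine 20 of histone H4. Each group had 1 array, 3 in all, so no difference below has a replicate check, a standard error or a p-value. The labels do not say whether the transduced cells were kept as a pool or as a clone.

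When amino acids are short, or the endoplasmic reticulum is stressed, kinases phosphorylate the translation factor eIF2 and most protein synthesis slows. The mRNA of the transcription factor ATF4 is then translated more, so ATF4 activity depends on translation and not only on the mRNA that an array reads. ATF4 pairs with C/EBP proteins on a composite sequence, the C/EBP-ATF response element, and raises genes for amino acid synthesis, amino acid uptake and charging of tRNAs, together with genes that restrain growth. Many tumour cells keep part of this programme active to feed serine, glycine and asparagine into growth.

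The core of that element, TGATGNAA, was searched on both strands in RefSeq promoters (GRCh38.p14, 250 bases before to 50 after each annotated start), and no other motif was searched. It was found in 10 of the 31 members that have such a promoter, against 4.46% of all 27305 genes in the table. Counted by start, 10 of 49 member windows held it, against 3.62% of 35116 windows. The members were listed as genes of this pathway, so this share describes the list and is not a finding of the arrays. A match describes letters and does not show a bound site, and the lack of a match covers only the searched window. The matches are shown because ATF4 and C/EBP proteins pair on this element. Each is given 5′ to 3′ on the strand of the gene with the match in capitals and its flanks in lower case:
CHAC1, chr15:40953252-40953279, plus strand: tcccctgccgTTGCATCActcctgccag
AARS1, chr16:70289676-70289703, minus strand: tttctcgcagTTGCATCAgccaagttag
FGF21, chr19:48755460-48755487, plus strand: aacaccaggaTTGCATCAgggaggagga
CARS1, chr11:3057408-3057435, minus strand: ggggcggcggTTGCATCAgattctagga
MARS1, chr12:57488054-57488081, plus strand: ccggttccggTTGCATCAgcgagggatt
JDP2, chr14:75427996-75428023, plus strand: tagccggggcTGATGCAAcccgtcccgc
NARS1, chr18:57621805-57621832, minus strand: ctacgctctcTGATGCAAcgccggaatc
ASNS, chr7:97872459-97872486, minus strand: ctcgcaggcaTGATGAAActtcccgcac
GARS1, chr7:30594835-30594862, plus strand: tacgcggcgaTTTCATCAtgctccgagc
SLC3A2, chr11:62881726-62881748, plus strand: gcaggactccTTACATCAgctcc

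The match began 209 bases before the start in CHAC1, 187 in AARS1, 68 in ASNS, 54 in FGF21, 33 in GARS1 and 16 in JDP2. In MARS1 and CARS1 it lay across the start, and in NARS1 and SLC3A2 it began at bases 15 and 38 of the transcript. A TGATGCAA run in a member's strand reads TTGCATCA on the other strand, so CHAC1, AARS1, FGF21, CARS1, MARS1, JDP2 and NARS1 carry the same 8 bases in 1 orientation or the other. Whether ATF4 occupied any of these places in the cells was not measured.

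**Figure D1:**
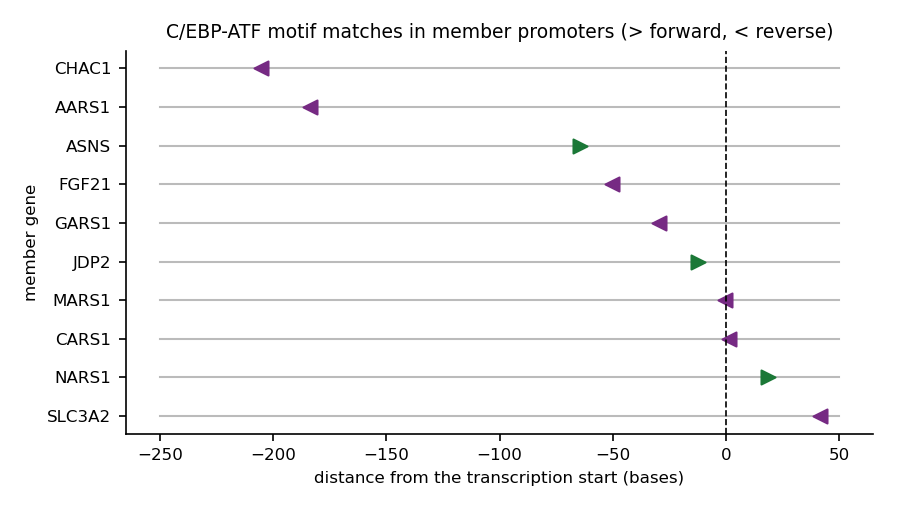
Each grey line is the promoter window of 1 member gene, from 250 bases before to 50 after its start (dashed line), and each triangle marks a match to TGATGNAA, pointing right in the forward and left in the reverse orientation. The matches of CHAC1 and AARS1 lie farthest from the start, at 209 and 187 bases before it.

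For the 4 genes with a match that lay furthest below both other constructs with stable Set8b, the 250 bases before the start are given whole, with the match in capitals:
CHAC1, chr15:40953221-40953470, plus strand: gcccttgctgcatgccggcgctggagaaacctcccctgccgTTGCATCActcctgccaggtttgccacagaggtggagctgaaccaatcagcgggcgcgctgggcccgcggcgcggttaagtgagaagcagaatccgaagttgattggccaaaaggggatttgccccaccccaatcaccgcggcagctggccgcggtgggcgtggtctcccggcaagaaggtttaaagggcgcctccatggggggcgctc
FGF21, chr19:48755274-48755523, plus strand: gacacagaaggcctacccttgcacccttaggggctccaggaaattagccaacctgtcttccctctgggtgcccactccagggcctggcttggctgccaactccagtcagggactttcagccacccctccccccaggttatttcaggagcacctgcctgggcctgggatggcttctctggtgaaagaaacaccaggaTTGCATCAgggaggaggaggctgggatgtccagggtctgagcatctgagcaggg
AARS1, chr16:70289507-70289756, minus strand: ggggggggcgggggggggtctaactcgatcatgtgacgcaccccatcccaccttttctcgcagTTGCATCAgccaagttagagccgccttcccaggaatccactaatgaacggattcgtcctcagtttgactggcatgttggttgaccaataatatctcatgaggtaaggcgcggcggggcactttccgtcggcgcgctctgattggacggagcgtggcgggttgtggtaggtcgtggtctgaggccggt
JDP2, chr14:75427772-75428021, plus strand: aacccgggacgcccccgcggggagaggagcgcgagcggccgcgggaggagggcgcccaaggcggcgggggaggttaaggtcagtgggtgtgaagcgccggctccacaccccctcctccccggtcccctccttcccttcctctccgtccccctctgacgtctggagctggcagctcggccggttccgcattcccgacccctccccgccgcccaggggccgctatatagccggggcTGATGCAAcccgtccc

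Most of these genes were lowest with stable Set8b, 22 of 37, and highest with wild-type Set8b, 26 of 37. Of all genes past a filter on dim probe sets (a mean signal of at least 37.0), 40.7% were lowest with stable and 30.7% highest with wild-type Set8b, and with no filter 33.8% and 30.2%. Signals are quantile-normalized intensities, differences are on the log2 scale, and a gene is counted where 2 arrays differ by at least 2-fold. With stable Set8b 27 of the 37 genes lay below wild-type Set8b, with a median difference of -0.44, and 5 were at least 2-fold lower and 0 higher. The 5 were FGF21, CHAC1, PHGDH, SLC7A11 and AARS1, of which AARS1 came to -0.97 with arrays centred on their medians and SLC7A11 to -0.72 with the mean over probe sets, short of 2-fold. The count below wild-type Set8b was also 27 with values as deposited and with arrays centred on their medians, and 28 with the mean over probe sets. In RNA from a whole culture, fewer cells with a transcript and less of it per cell cannot be told apart. Of all genes 9.58% were at least 2-fold lower and 9.75% higher in this comparison, and 5.23% and 4.96% of the 12631 past the filter. The 5 of 37 come to 13.5%. The median over all genes past the filter was -0.02, with 51.2% below 0, and it was also -0.02 among the 8247 genes in the brightest 25% of probe sets, where 33 of the members lay. Of the 37 members 36 passed the filter, and STC2 did not.

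Set against the empty vector, the median differences were smaller. Genes such as SESN2, DDIT3 and DDIT4 nevertheless differed more from vector with 1 form of Set8b than between the forms. The comparisons with vector share that array with each other and 1 array each with the comparison above. With stable Set8b 24 genes lay below vector and 13 above, with a median of -0.19, where 50.3% of all genes past the filter lay below. FGF21 was at least 2-fold lower, where 9.17% of all genes and 5.12% of those past the filter were, and SESN2 at least 2-fold higher, where 10.3% and 5.72% were. With wild-type Set8b 31 genes lay above vector and 6 below, with a median of 0.20, but 24 above and 13 below with arrays centred on their medians and with the mean over probe sets. Of all genes past the filter 51.1% lay above vector. CHAC1 and DDIT4 were at least 2-fold higher, where 7.41% of all genes and 1.67% of those past the filter were, and 0 were at least 2-fold lower, where 6.66% and 1.05% were. Centring gave a median of 0.09 for wild-type Set8b over vector and put 28 genes below vector with stable Set8b.

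The 2 forms of Set8b differed in direction from vector for 24 of the 37 genes. In 21, wild-type Set8b lay above vector and stable Set8b below it, and in ALDH18A1, NARS1 and PSPH it was the other way round. Both forms lay above vector for 10 genes and both below for ATF4, LARS1 and XPOT. The pattern of wild-type above and stable below vector was seen in 20.2% of all genes past the filter and in 16.9% with no filter. For the reverse pattern the shares were 18.7% past the filter and 16.4% with no filter. Both forms lay above vector in 30.9% of all genes past the filter and 27.8% with no filter. Both lay below it in 30.01% and 29.1%. Many of the members' differences are small. JDP2 and ATF5 count among the 21 with wild-type differences of 0.0025 and 0.01, and CBS and TRIB3 with stable differences of -0.002 and -0.02. The count was 18 with arrays centred on their medians, 20 with values as deposited and 17 with the mean over probe sets.

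**Figure D2:**
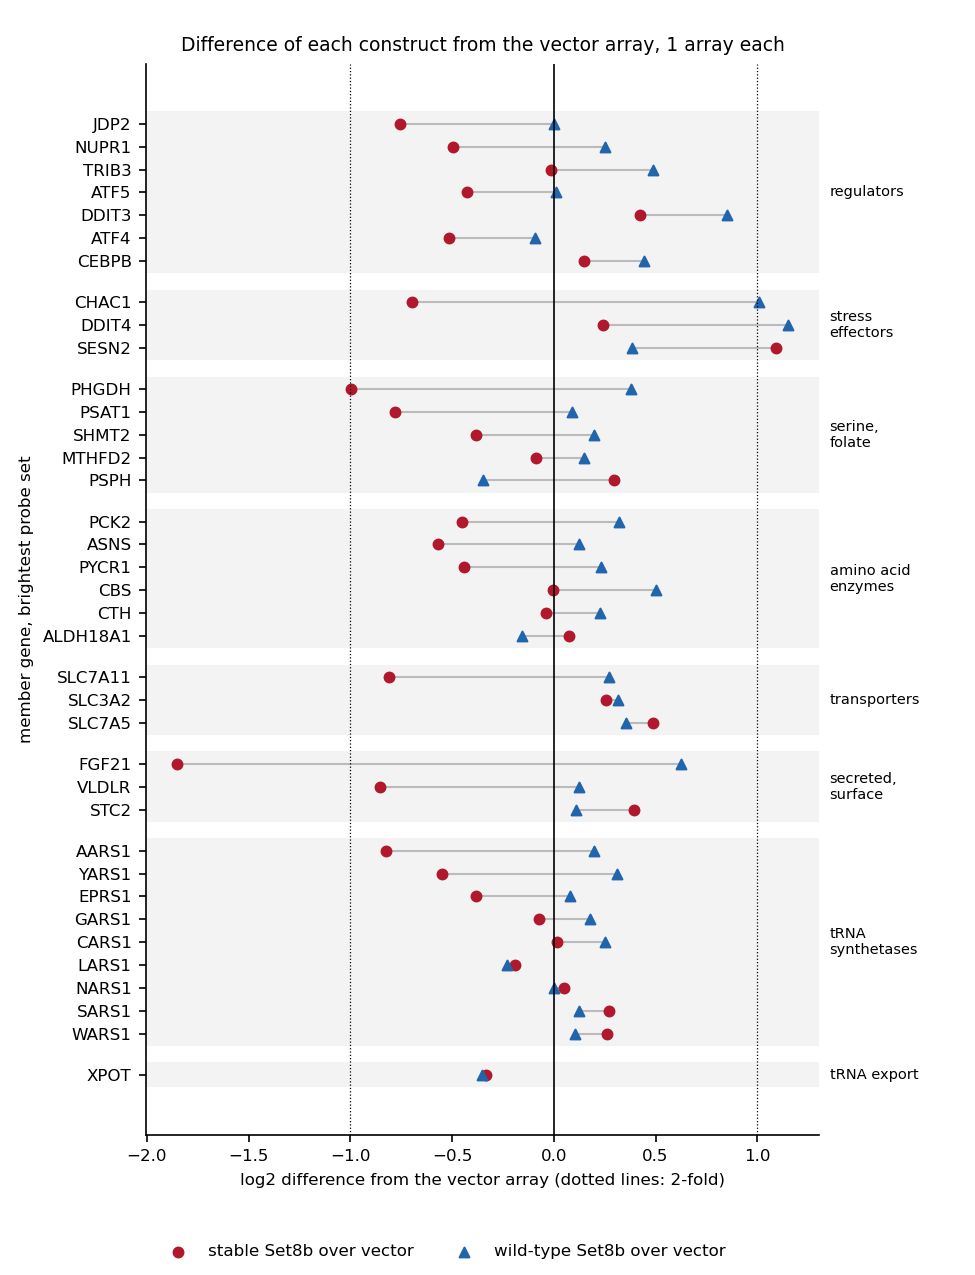
Each row is 1 member gene, grouped by role, with its log2 difference from the vector array for stable Set8b (red circles) and wild-type Set8b (blue triangles), 1 array each and no error bars. The grey line joins the 2 values, and 27 of 37 rows have the red circle on the left.

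In place of replicates, the arrays offer only how far different probe sets for 1 gene disagree. Over 5952 genes with several probe sets past the filter, the SD of that disagreement was 0.47 log2 between the forms of Set8b. It was 0.44 for the stable and 0.41 for the wild-type form relative to vector. Variation between cultures is not part of it. Of the 37 members 19 differed by more than 1 such SD between the 2 forms of Set8b, 17 of them lower with the stable form. The 2 higher ones were PSPH and SESN2. Of all genes, counted like the members with no filter, 22.7% were lower and 22.4% higher by more than that SD, and past the filter 2520 of 12631 were lower and 2305 higher.

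Among the transcription factors and regulators, all 7 lay lower with stable than with wild-type Set8b, between -0.76 and -0.30, except that the mean over probe sets put ATF5 at 0.32, and 0 of 7 passed 2-fold. ATF4 itself read 7001 with stable Set8b, 9404 with wild-type Set8b and 10017 with vector. The wild-type and vector arrays were close, and the stable array was 1.43-fold below vector (-0.52). ATF5, a related factor that is also under translational control, read 348, 471 and 468 in the same order of arrays. Its 2 probe sets past the filter both lay lower with stable than with wild-type Set8b, at -0.44 and -0.42, while 1 of the dim ones was at 2.20.

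DDIT3, which encodes the stress factor CHOP and lies downstream of ATF4, read 515 with stable Set8b, 693 with wild-type Set8b and 384 with vector. Both forms of Set8b lay above vector, wild-type by 0.85 and stable by 0.42. CEBPB, a C/EBP factor that can pair with ATF4, read 3675, 4514 and 3319, again highest with wild-type Set8b. TRIB3, a pseudokinase that feeds back on ATF4 and restrains AKT, read 674 with stable Set8b and 681 with vector, level with each other, and 954 with wild-type Set8b. Its 2 probe sets lay at -0.50 and -0.62 for stable over wild-type Set8b.

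NUPR1, a small stress-induced nuclear protein, read 1113 with stable Set8b, 1872 with wild-type Set8b and 1571 with vector, 1.68-fold lower with the stable than with the wild-type form. JDP2, a bZIP repressor that binds AP-1 and CRE-like sites, read 360.3, 610.2 and 609. Stable Set8b stood alone here, with wild-type Set8b and vector at equal levels, and its difference from wild-type was -0.76 by the brightest probe set and -0.93 by the other. The JDP2 promoter, shown above, has its match 16 bases before the start.

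The stress effectors did not share 1 order. CHAC1, an enzyme that breaks down glutathione and one of the ATF4 targets most strongly induced under stress, read 229 with stable Set8b, 744 with wild-type Set8b and 371 with vector. The vector array lay between the other arrays, with wild-type Set8b at 1.01 and stable Set8b at -0.70 relative to it, and the forms of Set8b differed 3.25-fold (-1.70). CHAC1 had a single probe set, so no second reading stands beside it. DDIT4, which encodes the mTORC1 inhibitor REDD1, read 1028, 1934 and 869.8 in the same order of arrays. It was 2.22-fold higher with wild-type Set8b than with vector and 1.88-fold higher than with stable Set8b, also by a single probe set.

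SESN2, a leucine sensor upstream of mTORC1 that both ATF4 and p53 can induce, had another order. Its signals were 493 with stable Set8b, 302 with wild-type Set8b and 231 with vector. The stable array was the highest, 2.13-fold above vector, and a second probe set agreed in direction at 1.30 over vector and 0.49 over wild-type Set8b. SESN2 is the only member of the 37 at least 2-fold higher with stable Set8b than with vector.

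**Figure D3:**
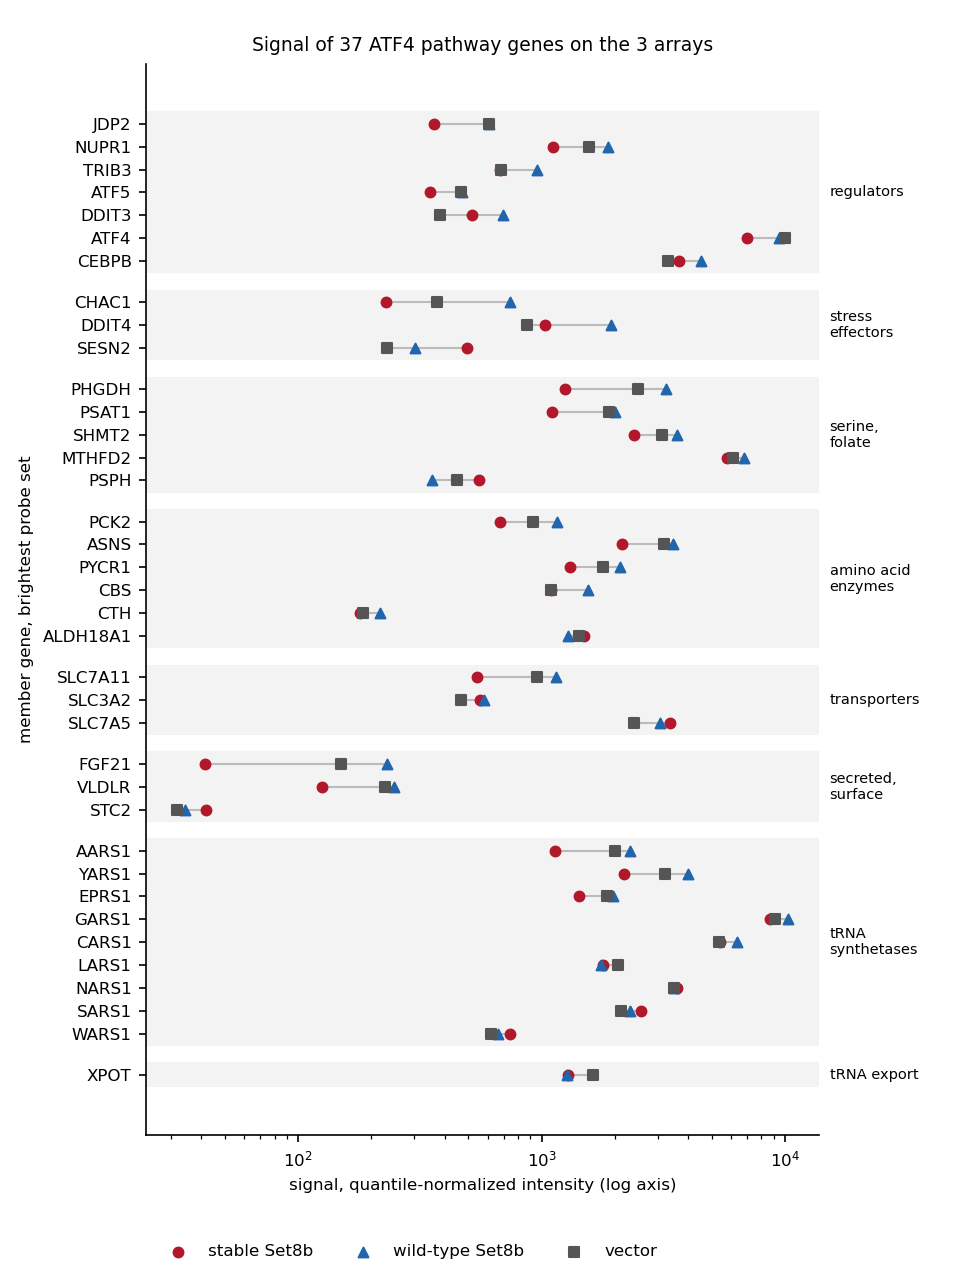
Each row gives the signal of 1 member gene by its brightest probe set on the stable Set8b (red circle), wild-type Set8b (blue triangle) and vector (grey square) arrays, 1 array each, on a log axis, grouped by role. The red circle is the lowest of the 3 points in 22 of 37 rows and the highest in 8, and levels of different genes are not comparable because their probes differ.

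Of the 5 genes of serine synthesis and mitochondrial folate metabolism, 4 lay lower with stable than with wild-type Set8b. PHGDH, which commits glycolytic carbon to serine, read 1246 with stable Set8b, 3237 with wild-type Set8b and 2489 with vector. The stable array was 2.60-fold below wild-type (-1.38) and just short of 2-fold below vector (-0.999), by 1 probe set. PSAT1, the transaminase that follows it, read 1099, 2007 and 1887. Wild-type Set8b and vector were close, and both PSAT1 probe sets put stable below wild-type Set8b, at -0.87 and -1.09.

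PSPH, the phosphatase that completes serine synthesis, read 553 with stable Set8b, 354 with wild-type Set8b and 451 with vector. Its order was the reverse of PHGDH and PSAT1, but its 3 probe sets did not agree, at 0.64, 1.16 and -0.62 for stable over wild-type Set8b, so its direction was not settled. SHMT2, which turns serine into glycine in mitochondria, read 2406, 3590.3 and 3133. All 3 of its probe sets lay below 0 for stable over wild-type Set8b, between -0.82 and -0.36. MTHFD2, the mitochondrial folate enzyme of the next steps, read 5778, 6798 and 6136, a narrow range, while its dimmer probe set was at -0.87 for stable over wild-type and -1.07 over vector.

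The other amino acid enzymes had a median of -0.59 for stable over wild-type Set8b, with 5 of 6 below 0 and 0 past 2-fold. ASNS, asparagine synthetase, long used as a model ATF4 target, read 2139 with stable Set8b, 3461 with wild-type Set8b and 3172 with vector. Stable Set8b was 1.62-fold below wild-type, and the other ASNS probe set read only the floor of 7.7 with either form of Set8b, so it gave no order between them. PCK2, the mitochondrial enzyme that makes phosphoenolpyruvate, read 675, 1154 and 924. PYCR1, which completes proline synthesis, read 1309.9, 2092 and 1779.5. In both the vector array lay between the other arrays.

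ALDH18A1, which opens the same proline pathway, did not follow PYCR1. Its signals were 1498 with stable Set8b, 1279 with wild-type Set8b and 1424 with vector, differences of at most 0.23. CBS and CTH, the enzymes of transsulfuration that make cysteine from homocysteine, were highest with wild-type Set8b by their brightest probe sets. CBS read 1093 with stable Set8b, 1549.9 with wild-type Set8b and 1094 with vector, level between stable Set8b and vector. Its other probe sets were at 0.23 and -0.45 for stable Set8b over vector, and the dimmer of them put vector highest. CTH read 180.1, 216 and 185. Its other probe set was farther apart, at -0.73 for stable over wild-type Set8b.

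The 3 transporters did not share 1 order. SLC7A11, the antiporter that brings in cystine, read 544 with stable Set8b, 1150.0 with wild-type Set8b and 953 with vector. Stable Set8b was 2.11-fold below wild-type and 1.75-fold below vector. All 3 probe sets put stable Set8b below vector, between -1.17 and -0.81, but only the brightest put wild-type Set8b above vector (0.27, against -0.37 and -0.52). SLC3A2, the heavy chain that SLC7A11 and SLC7A5 both need, read 559, 582 and 468. SLC7A5, the exchanger for large neutral amino acids such as leucine, read 3369.7, 3078 and 2406. For SLC3A2 and SLC7A5 both forms of Set8b lay above vector, and they differed from each other by -0.06 and 0.13.

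FGF21, a hormone that ATF4 induces in stressed cells, differed most of the members between the forms of Set8b, and its stable reading was dim. It read 41.4 with stable Set8b, 231 with wild-type Set8b and 149.7 with vector. Signals below 50 lie close to the filter level. With the stable side set to 50, it lay 4.62-fold below wild-type Set8b and 2.99-fold below vector. Without that step the differences were -2.48 and -1.85, all by a single probe set. Neither pair of values is a firm bound, as the leukocyte marker CD3D read 75.9 to 200.2 on the same arrays. VLDLR, a lipoprotein receptor that ATF4 raises, read 125, 247 and 227, just short of 2-fold lower with stable than with wild-type Set8b (-0.98). STC2, a secreted glycoprotein of the stress response, read 41.6, 34.2 and 31.7, all below 50, so no difference is read from it, though the counts over 37 genes include it.

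The tRNA synthetases charge tRNAs with amino acids, and the 9 measured had the smallest median of the role groups of at least 5 genes, -0.24 for stable over wild-type Set8b. Of these 5 lay below 0 and 4 above, and AARS1 alone passed 2-fold. AARS1, for alanine, read 1132 with stable Set8b, 2301 with wild-type Set8b and 2005 with vector, 2.03-fold lower with the stable than with the wild-type form. YARS1, for tyrosine, read 2188, 3975 and 3207, a difference of -0.86 between the forms by its brightest probe set and -0.44 by the other. EPRS1, the joint synthetase for glutamate and proline, read 1427, 1966 and 1860.0, but its second bright probe set went the other way at 0.33.

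For the remaining synthetases the differences were small or the probe sets did not agree. GARS1, for glycine, read 8679 with stable Set8b, 10324 with wild-type Set8b and 9115 with vector. CARS1, for cysteine, read 5407, 6371 and 5343. Both were highest with wild-type Set8b by the brightest probe set, and stable over wild-type Set8b came to -0.25 and -0.24. The other 3 CARS1 probe sets put vector highest, and the mean over its probe sets put stable Set8b at -0.97 relative to vector. NARS1, for asparagine, read 3614, 3495 and 3497, level on all 3 arrays. SARS1, for serine, read 2572, 2316 and 2128. WARS1, for tryptophan, which interferon also induces, read 739, 663 and 617. Both were highest with stable Set8b, by 0.15 and 0.16 over wild-type, although the other SARS1 probe set was at -0.32 and the mean over both at -0.09. LARS1, for leucine, read 1794, 1747 and 2050.5, and its 3 probe sets past the filter ran from -1.22 to 1.00, so it has no settled direction. XPOT, which exports tRNAs from the nucleus, read 1287, 1269 and 1619, lower with either form of Set8b than with vector, and its other probe set was at -0.66 for stable over wild-type Set8b.

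Of the 19 members with several probe sets past the filter, 14 had no probe set on the opposite side of 0 for stable over wild-type Set8b. EPRS1, LARS1, PSPH, SARS1 and XPOT were split. Relative to vector 10 of 19 were unsplit for the wild-type and 14 of 19 for the stable form.

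**Figure D4:**
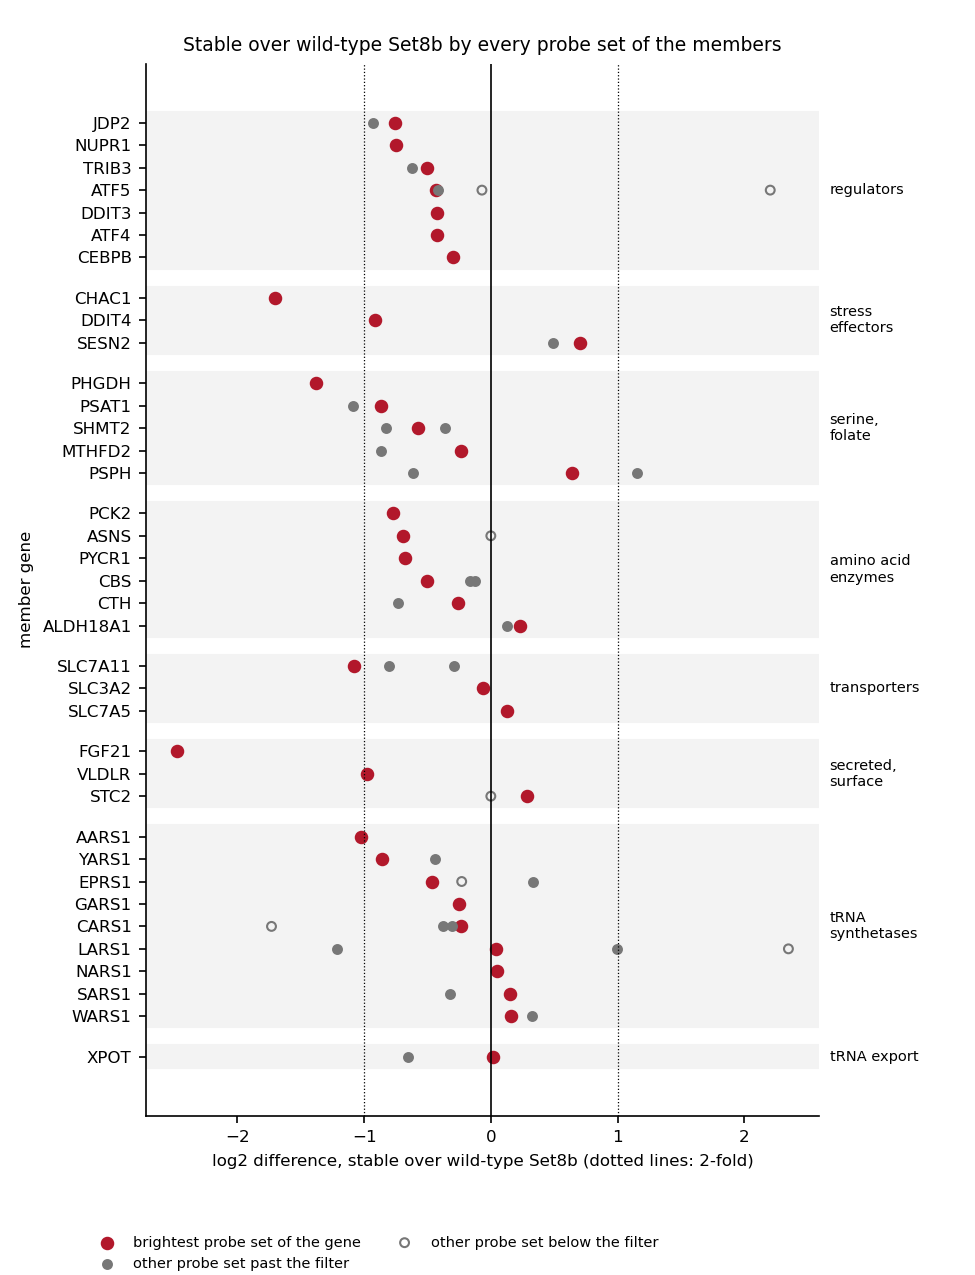
Each point is the log2 difference of stable over wild-type Set8b by 1 of the 69 probe sets of the member genes. Red points are the brightest probe set of each gene, grey points other probe sets past the filter and open points dim ones, and in LARS1 and PSPH the points lie on both sides of 0.

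The 9 measured members with a match in the promoter had a median of -0.69 for stable over wild-type Set8b, with 8 of 9 below 0. The 21 with a promoter but no match had -0.43, with 14 of 21 below 0. Over vector the medians of the same genes were -0.57 and -0.02 with stable Set8b, and 0.20 and 0.15 with wild-type Set8b. These values describe lists picked by sequence, and no test of the difference was run. The 21 genes lack a match only in the searched window. Another 7 measured members have no such promoter and stand in neither group. Between the forms of Set8b, SLC7A11, YARS1, NUPR1, PYCR1 and SHMT2 lay at -1.08, -0.86, -0.75, -0.68 and -0.58. LARS1 lay at 0.04 and PSPH at 0.64.

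A further 9 related lists were read the same way, without a filter. Their 2-fold counts between the forms stand beside 9.58% of all genes lower and 9.75% higher with no filter. The 14 measured genes for eIF2, its exchange factor, its kinases and its phosphatase subunits had medians near 0. These were 0.002 for the stable and 0.03 for the wild-type form relative to vector and -0.02 between the forms. Single genes ran from -0.44 to 0.63 for stable Set8b over vector and from -0.53 to 0.51 between the forms. By the brightest probe sets 0 of 14 passed 2-fold in any comparison. EIF2AK4, the kinase GCN2 that senses uncharged tRNA, read 717 with stable Set8b, 502 with wild-type Set8b and 607 with vector. PPP1R15A, which encodes the feedback phosphatase subunit GADD34, read 267, 209.6 and 172, highest with stable Set8b. Its other probe set was past 2-fold over vector, at 1.75 for stable and 1.13 for wild-type Set8b. PPP1R15B, the constitutive subunit, read 1623, 2336 and 2203, lowest with stable Set8b.

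The 21 measured targets of ATF6 and XBP1, the other branches of the unfolded protein response, had a median of 0.14 for stable over wild-type Set8b, with 14 above 0 and 0 past 2-fold in any comparison. DNAJB9, a chaperone partner of the endoplasmic reticulum, read 476 with stable Set8b, 247 with wild-type Set8b and 296 with vector. PDIA3, a disulfide isomerase, read 1271, 855 and 783. Both were highest with stable Set8b by their brightest probe sets, where PHGDH and CHAC1 were lowest. The 3 probe sets of DNAJB9 ran from -0.08 to 0.68 for stable Set8b over vector. The stress sensors ATF6 and ERN1 lay lower with stable than with wild-type Set8b, at -0.84 and -0.77, by their brightest probe sets, while others of theirs reached 0.11 and 0.90.

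Further reported ATF4 targets, 24 measured of 25, had a median of -0.19 between the forms, with 11 above 0 and 13 below, 2 at least 2-fold higher and 3 lower. The last 2 counts come to 8.33% and 12.5%, near the 9.75% and 9.58% of all genes with no filter. Below 0 lay 54.2% of the list and 47.1% of all genes. The lower ones were INHBE, SLC1A4 and MTHFD1L, the last named after its values were seen and dim on all arrays. INHBE, an activin subunit, read 38.8 with stable Set8b, 134 with wild-type Set8b and 98.8 with vector, in the order of FGF21. SLC1A4, a transporter of neutral amino acids, read 334, 709.8 and 676, lowest with stable Set8b by the brightest of its 5 probe sets, which ran from -1.73 to 0.67. The 2 higher ones, the cytokine gene GDF15 at 3.48 and CDKN1A, the gene of p21, at 1.80, are p53 targets as well. SESN1, a sestrin and p53 target, stood in the list of mTORC1 and amino acid sensing at 1.54, where the member SESN2 was at 0.71. The 16 genes of that list had a median of 0.04, with 1 past 2-fold each way, the lower one being RPTOR, the scaffold of mTORC1, at -1.11.

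The other 9 measured cytosolic synthetase genes, a list with the scaffold gene AIMP1 in it, had a median of 0.05 between the forms. RARS1, for arginine, was the one past 2-fold, with 1624 with stable Set8b, 578 with wild-type Set8b and 803 with vector. It was highest where AARS1 was lowest. The 15 mitochondrial synthetases had a median of -0.18, and 0 of 15 passed 2-fold. In the list of the folate cycle and transsulfuration, 14 genes, the median was 0.25, with MTHFD1, the cytosolic partner of MTHFD2, at -0.77 and GCLM, a subunit of the enzyme that opens glutathione synthesis, at 1.02. The 11 targets of NRF2, which also drives SLC7A11, had a median of 0.15, and that list holds SLC7A11 and SLC3A2 themselves, and GCLM stands in both lists. HMOX1, heme oxygenase, read 789, 538 and 363, highest with stable Set8b.

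Among 10 measured partner and related bZIP factors the median was -0.18 between the forms, with 5 on each side and 2 at least 2-fold lower. Those were FOS, which read 122 with stable Set8b, 528 with wild-type Set8b and 230.5 with vector, and CREB1 at -1.22 by the brightest of 7 probe sets, which ran up to 0.31. FOS had the order of CHAC1, FGF21 and INHBE, lowest with stable and highest with wild-type Set8b. With stable Set8b, FGF21 and INHBE read only 41.4 and 38.8. CEBPA, another C/EBP factor, was dim, at 31.7, 58.3 and 50.6.

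**Figure D5:**
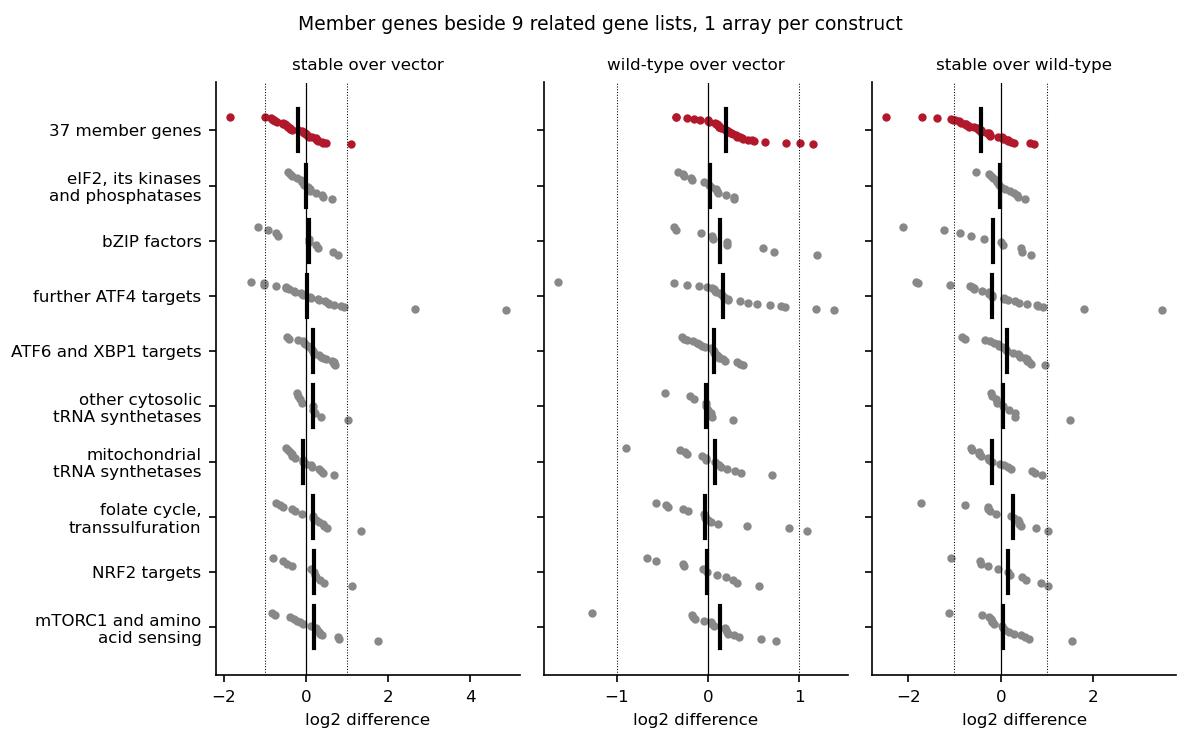
Points are genes and black bars are medians of the log2 difference, for the 37 member genes (red) and 9 related lists (grey), in the 3 comparisons, 1 array per construct, with dotted lines at 2-fold. The members' median lies at -0.44 for stable over wild-type Set8b, and the medians of the other lists lie between -0.19 and 0.25.

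Across the series, 18 probe sets for hybridisation spike-ins read a median of 0.796 times the vector array on the stable array and 1.01 times on the wild-type array. The 24 for poly-A spike-ins read 0.467 and 0.441 times vector, so both Set8b arrays stood below the vector array there. The part of either in the members' differences was not tested. KMT5A, the transduced gene, had 4 probe sets with ratios to vector of 0.589 to 1.87 on the stable and 1.13 to 2.34 on the wild-type array. Which of them the transduced sequence covers was not analysed here, so they are no check of the labels. Of 8 mesenchymal and osteosarcoma markers 7 passed the filter, with VIM between 11123 and 13006, and COL1A2 did not, at 27.7, 19.5 and 17.4. Of 5 epithelial markers 4 passed, with KRT8 at 3449.8 to 3783, and KRT19 read the floor of 7.7 on all 3 arrays. Of 4 measured leukocyte markers PTPRC and CD14 did not pass, and CD3D at 75.9 to 200.2 and CD79A at 99.7 to 184 did.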

How the data were processed

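Affymetrix arrays were hybridised with RNA from U2OS cells, 1 array for each of 3 constructs, per the labels. The deposited values are linear signal intensities per probe set, and no label names the program or settings behind them. Each array's trimmed mean (2% off each end) was 250.0, so the deposited intensities had been scaled to that target. Because the arrays' log2 medians spanned 0.15, above a tolerance of 0.1, intensities were quantile-normalized over all 54675 probe sets except 62 controls, floored at their 20th percentile (7.7) and taken to log2. Probe sets were named through the platform annotation, updated by gene ID against RefSeq: 41091 had 1 symbol, 1801 several and 11721 none. Python 3.11.15, numpy 2.4.6 and pandas 2.3.3 were used.

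A gene was represented by its probe set of highest mean log2 signal. Members were not filtered, and the filter quoted beside them is a mean signal of at least 37.0, the 50th percentile. With 1 array per construct no test was run, and genes were counted at 2-fold. The number of arrays limits the precision. The procedure was tested on simulated data with planted differences beyond 2-fold in brighter probe sets. Smaller differences, and the choice of 1 probe set per gene, were not part of that test. The members and lists were chosen with earlier results of these data known. All members could be named, and up to 4 genes of each other list past the filter, those where the stable array differed most from either other array, while marker genes were named as listed. The alternatives were values as deposited, centring on medians, no floor or one at 50, 2 filters on dim probe sets, thresholds of 1.5-fold and 3-fold, the mean over probe sets, and leaving out _x_at and _s_at probe sets.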

Additional observations from a re-analysis of the deposited data

How the results depend on the processing

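The direction of the members' median kept its sign under all alternatives run, in all 3 comparisons, but counts of genes past 2-fold rest on few genes. For stable over wild-type Set8b, 5 genes were at least 2-fold lower and 0 higher. That became 14 lower and 2 higher at 1.5-fold and 2 lower at 3-fold. It became 4 lower with centring, where AARS1 fell short of 2-fold, with the mean over probe sets, where SLC7A11 did, and in the brightest 25%, which leaves out FGF21. For stable Set8b over vector the 1 higher gene became 0 at 3-fold and without probe sets ending in _x_at or _s_at. The latter setting leaves only 25 members. It drops SESN2, the higher gene, because all SESN2 probe sets end in _s_at. They lay at 1.09 and 1.30 over vector, so SESN2 was not read in that setting. The 1 lower gene became 2 with values as deposited, with centring on medians, with the mean over probe sets and without _x_at and _s_at, 0 in the brightest 25% and 8 at 1.5-fold. The median of -0.19 was -0.30 with centring and -0.087 without _x_at and _s_at. For wild-type Set8b over vector the 2 higher genes became 0 with centring, 1 without _x_at and _s_at, 4 at 1.5-fold and 0 at 3-fold, the 0 lower became 1 without _x_at and _s_at, and the median of 0.20 was 0.087 with centring. DDIT4 was left out without _x_at and _s_at, as its only probe set ends in _s_at. The lower gene in that setting was ASNS, read by a dim probe set. That probe set read 7.7 with stable Set8b, 7.7 with wild-type Set8b and 24.6 with vector. Centring moves all deposited log2 values of an array by the same amount. It put the median over all genes at -0.06 for wild-type Set8b over vector. Causes of the other changes were not tested.

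Single members kept the sign of their difference under every alternative run in 32 of 37 for stable over wild-type Set8b, 28 of 37 for stable Set8b over vector and 26 of 37 for wild-type Set8b over vector. The 5 without a kept sign in the first were ATF5, ASNS, STC2, XPOT and SARS1. The 32 include EPRS1, LARS1 and PSPH, whose probe sets past the filter were split. For the 16 members with 1 probe set no alternative brought in another reading, so a kept sign is a weak check. No paired analysis was possible because each construct has 1 array. Signals close to background, as for FGF21 and INHBE with stable Set8b, leave the size of a difference open, and no order is read from STC2. No replicate shows how far 1 array can differ from another of the same construct.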
